A study of Sus scrofa with 12 samples.

Results

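The genes described here belong to the signalling pathway of leukaemia inhibitory factor (LIF) and interleukin-6 (IL-6), measured in infarcted pig heart. The set comprised 10 genes: the ligands LIF and IL6, the receptor chains LIFR, IL6R, IL6ST and OSMR, the kinases JAK1 and JAK2, the transcription factor STAT3 and the inhibitor SOCS3. They were taken as the array's probe-to-gene table names them, which gave 8 of the 10 genes and 11 of the 27558 probe sets. LIFR and SOCS3 were not named by that table and were not analysed here. LIF and STAT3 entered the set because they were chosen by the study on these same arrays. Their differences between groups are therefore given as a description, with no test. Only their correlations were tested, over all pigs, where differences between groups enter, and within groups, where they do not. The study also measured LIF and STAT3 by qPCR, and it reports that qPCR did not bear out STAT3 in a single biogroup. Those qPCR values were not used here.

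The study asked whether the secretome of menstrual blood-derived mesenchymal stromal cells changes gene expression in the heart after acute myocardial infarction (AMI). Female Large White pigs underwent balloon occlusion and reperfusion of the left anterior descending artery, and at day 3 after infarction they received 5 mL into the pericardial sac. AMI/Placebo pigs received vehicle, the medium with insulin, transferrin and selenium in which a secretome is collected. AMI/S-endMSCs pigs received the secretome of unprimed cells, and AMI/S-endMSCs* pigs received the same protein mass from cells primed with IFNγ and TNFα. All 12 pigs were infarcted, with 4 in each of the 3 groups, and no uninfarcted heart was among the samples used here. Infarcted tissue of the left ventricular wall was taken at day 7 after therapy, and each pig gave 1 array.

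Cytokines of the IL-6 family signal by bringing receptor chains together at the cell surface. IL-6 binds IL6R, LIF binds LIFR and oncostatin M binds OSMR, and each of these complexes includes the shared chain IL6ST (gp130). Kinases of the JAK family, bound to the receptor tails, then phosphorylate STAT3, which enters the nucleus and induces target genes, among them its own inhibitor SOCS3. In the heart, IL6ST and STAT3 are known for protecting cardiomyocytes and for controlling inflammation and scar formation after infarction. STAT3 is switched on by phosphorylation, which an array of RNA does not read.

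Values were log2 signals with the same processing on all arrays, running from 0.174 to 13.22. The median of the probe set means was 2.78, and the median standard deviation (SD) within groups was 0.43. A signal depends on its probes as well as on the amount of RNA, so levels were compared between groups and not between genes. The number of arrays limited the precision. All 15 measured cardiomyocyte markers, of 20 listed, had means over the array-wide median. In whole tissue, fewer cells of a type and less RNA per cell cannot be told apart. The interquartile range of an array, the width of its central values, was between 1.66 and 2.52, and the narrowest array was AMI/S-endMSCs replicate 1, which also had the lowest mean correlation with the other arrays (0.82). Differences were tested with limma across all 27558 probe sets and called at an unadjusted p below 0.05. The study used the same kind of threshold. After Benjamini-Hochberg adjustment over all probe sets the smallest p was 0.857 for AMI/S-endMSCs against AMI/Placebo, 0.342 for AMI/S-endMSCs* against AMI/Placebo and 0.552 for AMI/S-endMSCs* against AMI/S-endMSCs, so no call below passed adjustment.

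Among the ligands, LIF read highest in AMI/S-endMSCs and lowest in AMI/S-endMSCs*. LIF is a cytokine of injured muscle and heart that acts on cardiomyocytes and leukocytes. The log2 values of LIF (probe set 15231264) were 3.26, 3.21, 2.34 and 3.14 in the AMI/Placebo pigs, in the order of their replicate numbers. In the AMI/S-endMSCs pigs they were 4.05, 3.24, 2.78 and 2.80, and in the AMI/S-endMSCs* pigs 2.51, 2.52, 1.96 and 2.55. All 4 AMI/S-endMSCs* pigs read below all 4 AMI/S-endMSCs pigs, a separation that 3.41% of all probe sets had in this comparison in either direction, and between AMI/S-endMSCs* and AMI/Placebo only placebo replicate 3 fell into the range of the treated pigs. Group means were 2.99 ± 0.43, 3.22 ± 0.60 and 2.38 ± 0.28 (SD, n = 4 each). LIF was thus 0.61 lower in AMI/S-endMSCs* than in AMI/Placebo on the log2 scale (SE 0.31, 1.52-fold), 0.83 lower than in AMI/S-endMSCs (SE 0.31, 1.78-fold), and 0.23 higher in AMI/S-endMSCs than in AMI/Placebo (SE 0.31). Its overall mean of 2.86 lay near the median of all probe sets, and the placebo value on which the overlap rests stood apart from the other 3 of its group. Without AMI/S-endMSCs replicate 1, the highest pig, LIF was 0.55 lower in AMI/S-endMSCs* than in AMI/S-endMSCs, and the difference of AMI/S-endMSCs from AMI/Placebo was -0.05.

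IL6, the founding cytokine of the family and an early inflammatory signal, did not pass the test in any comparison. Its log2 values (probe set 15327424) were 2.34, 3.03, 2.54 and 2.58 in AMI/Placebo, 2.68, 2.98, 4.15 and 2.45 in AMI/S-endMSCs, and 2.10, 2.79, 2.34 and 2.92 in AMI/S-endMSCs*. AMI/S-endMSCs replicate 3 read above every other pig, and the remaining pigs overlapped across the groups. The difference of AMI/S-endMSCs from AMI/Placebo was 0.44 (95% CI -0.30 to 1.18, limma unadjusted p = 0.220), and without replicate 3 of AMI/S-endMSCs it was 0.08. AMI/S-endMSCs* differed from AMI/Placebo by -0.08 (95% CI -0.82 to 0.65, limma unadjusted p = 0.810) and from AMI/S-endMSCs by -0.53 (95% CI -1.26 to 0.21, limma unadjusted p = 0.149). The IL6 probe set had a mean of 2.74, just under the median of all probe sets.

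Of 8 further ligands of the family 3 were measured, all with means under the median of all probe sets, and none passed the test in any of the 3 comparisons. OSM, oncostatin M, is released by leukocytes and acts through OSMR in infarcted heart, and its gene is the next protein-coding gene after LIF in the RefSeq annotation of Sscrofa11.1. It read 2.19, 1.94, 2.12 and 2.41 in AMI/Placebo, 2.44, 1.90, 1.91 and 1.60 in AMI/S-endMSCs, and 1.61, 2.86, 1.64 and 2.29 in AMI/S-endMSCs*. The groups overlapped, and the difference of AMI/S-endMSCs* from AMI/S-endMSCs was 0.14 for OSM (95% CI -0.49 to 0.77), against -0.83 for its neighbour LIF. CNTF and CLCF1, which signal through the CNTF receptor, differed between groups by -0.17 to 0.09. IL11 and CTF1 were not named by the table.

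Receptor chains followed. IL6ST, the shared chain, had log2 values (probe set 15244515) of 7.22, 7.59, 6.78 and 6.44 in AMI/Placebo, 5.12, 6.72, 7.14 and 6.61 in AMI/S-endMSCs, and 6.92, 6.60, 6.94 and 6.70 in AMI/S-endMSCs*. The primed-secretome pigs lay close together (SD 0.17), whereas AMI/S-endMSCs spread widely (SD 0.88), with replicate 1 below every other pig. IL6ST was 0.61 lower in AMI/S-endMSCs than in AMI/Placebo, which did not pass the test (95% CI -1.43 to 0.20, limma unadjusted p = 0.130). Without replicate 1 of AMI/S-endMSCs that difference was -0.19. The difference of AMI/S-endMSCs* was -0.22 from AMI/Placebo (limma unadjusted p = 0.572) and 0.39 from AMI/S-endMSCs (limma unadjusted p = 0.320), and these intervals reached -1.04 and 1.21.

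OSMR, the oncostatin M receptor, was read by a pair of probe sets. The brighter one (15244214) gave 4.47, 4.64, 4.60 and 4.03 in AMI/Placebo, 3.12, 4.10, 4.96 and 3.25 in AMI/S-endMSCs, and 4.14, 4.62, 4.01 and 3.53 in AMI/S-endMSCs*. AMI/S-endMSCs held both the lowest and the highest pig, and its SD was 0.85 against 0.28 in AMI/Placebo. Its difference from AMI/Placebo was -0.57 (95% CI -1.38 to 0.23, limma unadjusted p = 0.147), and that of AMI/S-endMSCs* was -0.36 (95% CI -1.16 to 0.44, limma unadjusted p = 0.352). The dimmer OSMR probe set (15242681) ranged from 2.89 to 3.63 over the 12 pigs, and its group means of 3.19, 3.14 and 3.20 differed by no more than 0.06. For the brighter probe set 76.0% of all probe sets had a smaller within-group SD, for the dimmer one 8.45%.

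IL6R, the chain that binds IL-6 and gives a cell its direct response to that cytokine, gave the single call among the tested probe sets. Its dimmer probe set (15280475) read 1.93, 2.11, 2.27 and 2.38 in AMI/Placebo, 2.68, 2.63, 2.27 and 2.78 in AMI/S-endMSCs, and 2.11, 3.27, 2.82 and 2.72 in AMI/S-endMSCs*. Of the AMI/S-endMSCs* pigs 3 read above all placebo pigs and replicate 1 read among them. The rise was 0.55 in AMI/S-endMSCs* against AMI/Placebo (95% CI 0.01 to 1.10, 1.47-fold, limma unadjusted p = 0.0467, adjusted p = 1.0), and the difference of AMI/S-endMSCs from AMI/Placebo was 0.42 (95% CI -0.13 to 0.96, limma unadjusted p = 0.121). The mean of this probe set, 2.50, lay under the median of all probe sets, and the call was lost in 9 of the 12 fits that left out 1 pig, with the smallest difference, 0.37, without replicate 2 of AMI/S-endMSCs*. The other IL6R probe set (15285381) gave 3.70, 3.60, 3.51 and 3.20 in AMI/Placebo, 4.67, 3.49, 3.14 and 3.40 in AMI/S-endMSCs, and 3.12, 3.51, 3.53 and 3.99 in AMI/S-endMSCs*. It did not repeat the call, with a difference of 0.03 for AMI/S-endMSCs* against AMI/Placebo (95% CI -0.64 to 0.71, limma unadjusted p = 0.915). The mean over both IL6R probe sets differed by 0.29 in that comparison (limma unadjusted p = 0.255).

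All 4 further receptor chains of the family were measured, namely IL11RA, CNTFR, IL27RA and IL31RA, which bind IL-11, CNTF, IL-27 and IL-31. Each had a mean over that median, and none passed the test in any comparison, with differences from -0.30 to 0.23. IL31RA is the neighbour of IL6ST in the RefSeq gene order. It read between 2.95 and 4.36 over the 12 pigs, with AMI/Placebo replicate 2 highest, the pig that was also highest for IL6ST.

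**Figure D1:**
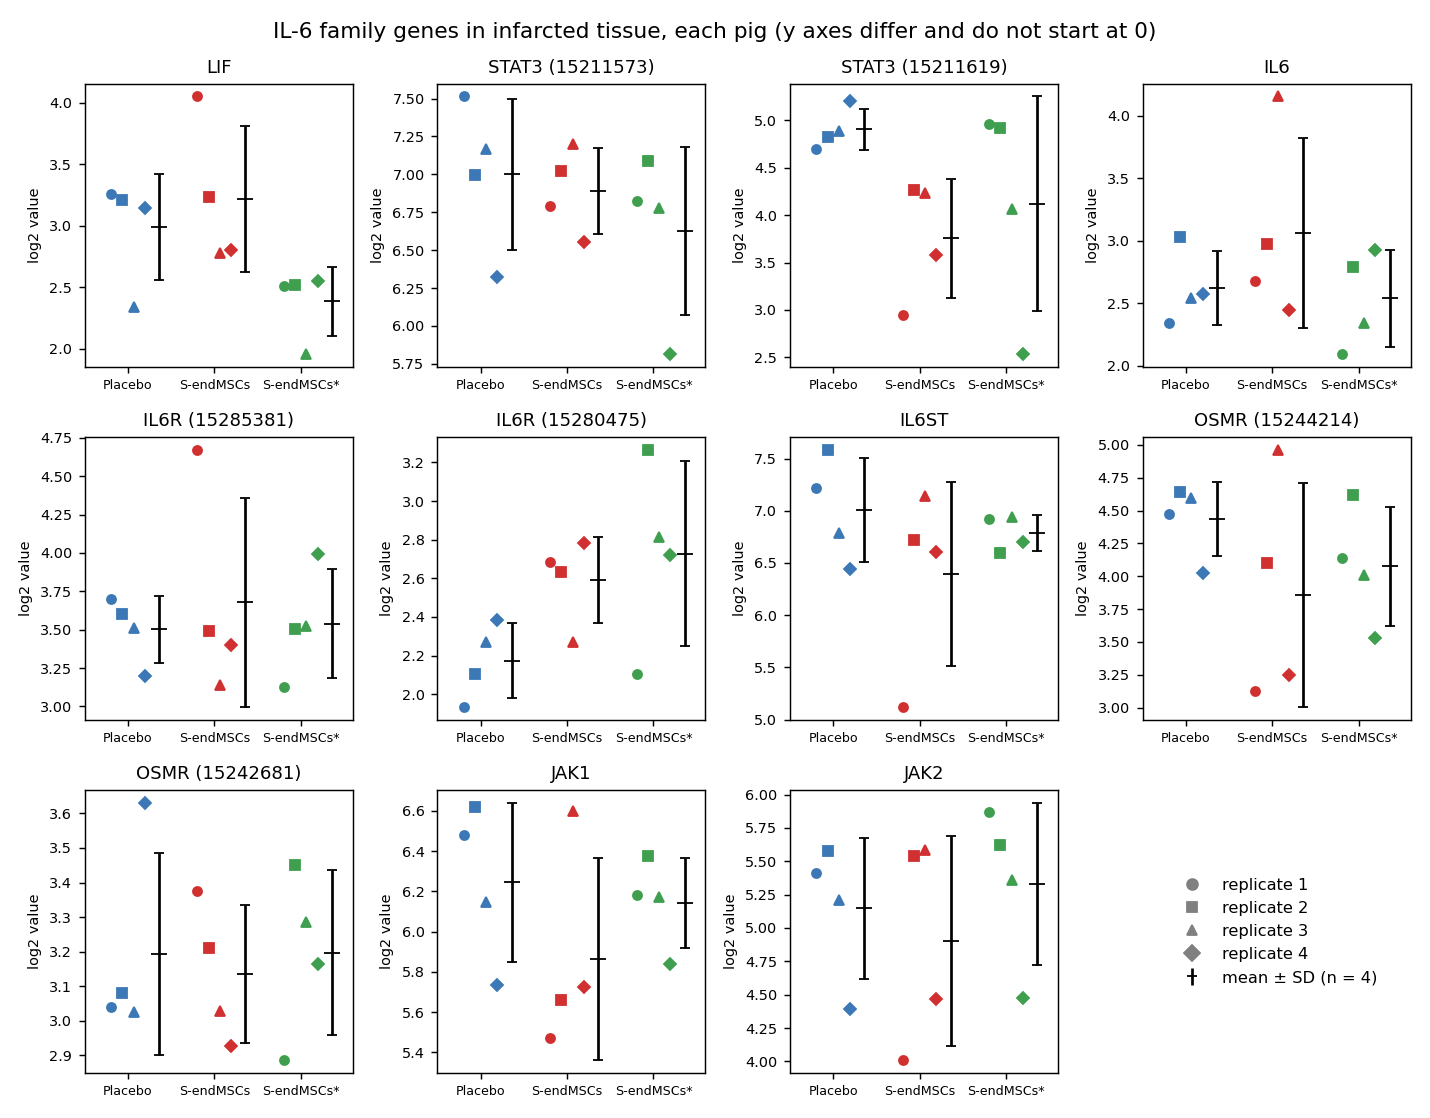
Log2 values of the 11 probe sets of the IL-6 family genes in each pig, with 1 panel per probe set, 1 column of points per group, marker shape for the replicate number, and the group mean ± SD (n = 4) in black. LIF separates AMI/S-endMSCs* from AMI/S-endMSCs without overlap, and STAT3 probe set 15211619 separates AMI/S-endMSCs from AMI/Placebo. Of all probe sets 3.41% and 2.7% do so in these comparisons, in either direction. The groups overlap in every comparison of the remaining 9 probe sets. LIF and STAT3 are the genes the study chose on these arrays, so nothing is read from their separation.

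JAK1 and JAK2 are the kinases bound to the receptor tails. JAK1, needed for signalling through IL6ST, read 6.48, 6.62, 6.15 and 5.73 in AMI/Placebo, 5.47, 5.66, 6.60 and 5.72 in AMI/S-endMSCs, and 6.18, 6.38, 6.17 and 5.84 in AMI/S-endMSCs* (probe set 15300498). Of the AMI/S-endMSCs pigs 3 read below the whole placebo group and replicate 3 read near its top. The difference of AMI/S-endMSCs from AMI/Placebo was -0.38 (95% CI -0.99 to 0.22, limma unadjusted p = 0.198), while AMI/S-endMSCs* differed from AMI/Placebo by -0.10 (limma unadjusted p = 0.722) and from AMI/S-endMSCs by 0.28 (limma unadjusted p = 0.339).

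JAK2, which also serves the receptors of haematopoietic cytokines, read 5.41, 5.57, 5.21 and 4.39 in AMI/Placebo, 4.01, 5.54, 5.58 and 4.46 in AMI/S-endMSCs, and 5.87, 5.62, 5.36 and 4.47 in AMI/S-endMSCs* (probe set 15197310). In each group replicate 4 lay well under the pigs of replicates 2 and 3, and the SDs within groups (0.53, 0.79 and 0.61) were larger than any difference between groups. For JAK2 the 3 differences were -0.25, 0.18 and 0.43 (limma unadjusted p = 0.558, 0.661 and 0.312), for AMI/S-endMSCs and AMI/S-endMSCs* against AMI/Placebo and for AMI/S-endMSCs* against AMI/S-endMSCs. Of the 8 other Janus kinases and STATs listed 6 were measured, and none passed the test in any comparison (smallest unadjusted p = 0.0656). The difference of AMI/S-endMSCs from AMI/Placebo was negative for 5 of these 6, with a median of -0.13 and a range of -0.63 to 0.03.

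STAT3 was read by a pair of probe sets that differed in their change. Over the 12 pigs the brighter one (15211573) had a mean of 6.84 and the dimmer one (15211619) a mean of 4.26. The brighter probe set read 7.51, 7.00, 7.17 and 6.32 in AMI/Placebo, 6.79, 7.02, 7.20 and 6.55 in AMI/S-endMSCs, and 6.82, 7.09, 6.77 and 5.82 in AMI/S-endMSCs*. These groups overlapped throughout, with differences of -0.11, -0.37 and -0.27 (SE 0.32 each) for AMI/S-endMSCs and AMI/S-endMSCs* against AMI/Placebo and for AMI/S-endMSCs* against AMI/S-endMSCs. Without replicate 4 of AMI/S-endMSCs*, its lowest pig, that group differed from AMI/Placebo by -0.10 and from AMI/S-endMSCs by 0.0041. The dimmer STAT3 probe set read 4.70, 4.83, 4.89 and 5.21 in AMI/Placebo, 2.94, 4.27, 4.24 and 3.58 in AMI/S-endMSCs, and 4.96, 4.92, 4.07 and 2.54 in AMI/S-endMSCs*. Every AMI/S-endMSCs pig read below every placebo pig, and 2.7% of all probe sets separated these groups in one direction or the other. By contrast the AMI/S-endMSCs* pigs divided into replicates 1 and 2, within the placebo range, and replicates 3 and 4, below it.

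The size of the STAT3 difference therefore depended on the probe set. By the dimmer one STAT3 was 1.15 lower in AMI/S-endMSCs than in AMI/Placebo (SE 0.47, 2.22-fold), against a difference of -0.11 by the brighter one. In AMI/S-endMSCs* it was 0.79 lower than in AMI/Placebo (SE 0.47), and without replicate 4 of AMI/S-endMSCs* 0.26 lower. The mean over both probe sets was 0.63 lower in AMI/S-endMSCs than in AMI/Placebo. Within groups the dimmer probe set had an SD of 0.76, and 89.7% of all probe sets varied less. Over the 12 pigs the STAT3 probe sets correlated at r = 0.54 (rho = 0.29, permutation p = 0.0657, adjusted p = 0.197 over the 3 genes with a pair of probe sets), and at 0.10 without the 2 pigs farthest from the median. For IL6R the correlation between probe sets was 0.24 and for OSMR -0.14 (permutation p = 0.466 and 0.675, adjusted p = 0.675 for both), with rho of 0.16 and -0.21. Without the 2 farthest pigs these were 0.08 and -0.26. STAT5A, the gene next to STAT3 in the RefSeq order, read from 2.41 to 3.55 and differed by at most 0.23 between groups.

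**Figure D2:**
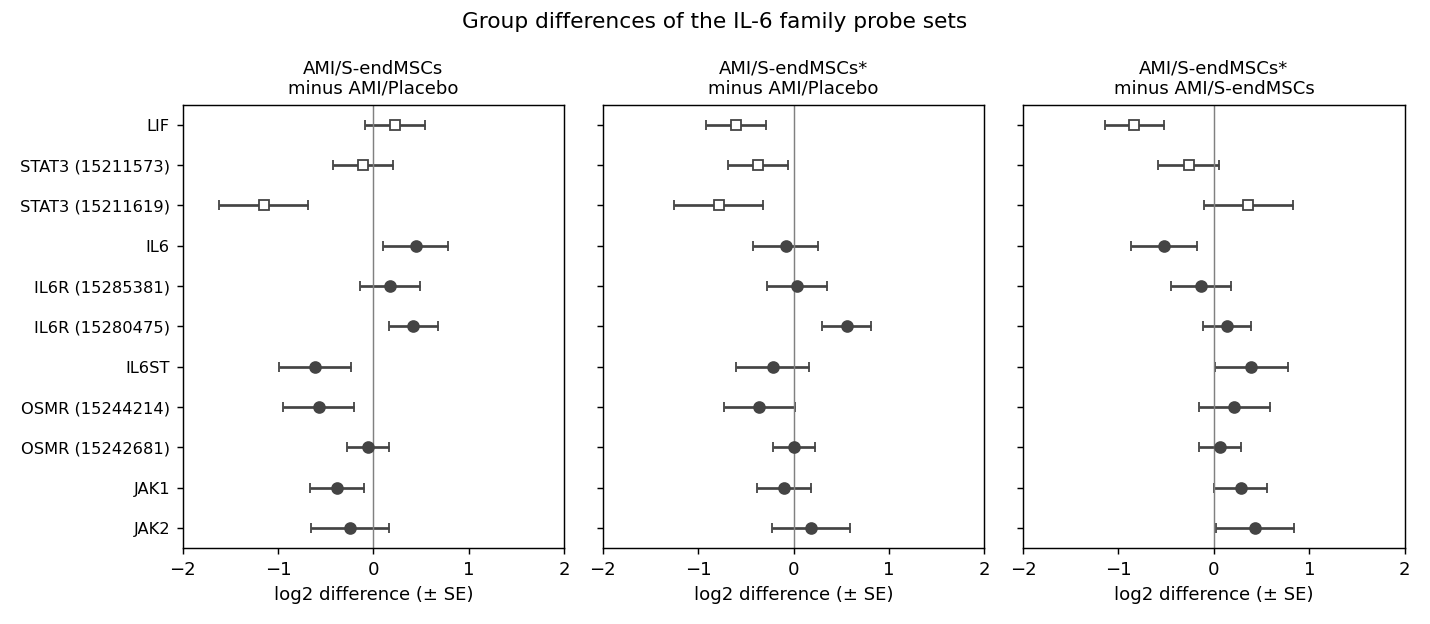
Log2 differences (points, ± SE) of the 11 probe sets in the 3 comparisons. Open squares are LIF and STAT3, which the study chose on these arrays and which are shown without a test, and filled circles are the tested probe sets. The differences of the tested probe sets lie between -0.61 and 0.55, and in AMI/S-endMSCs against AMI/Placebo the STAT3 probe sets give -0.11 and -1.15.

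Counted over the 6 tested genes and their 8 probe sets, 0 were called in AMI/S-endMSCs against AMI/Placebo, 1 in AMI/S-endMSCs* against AMI/Placebo (IL6R) and 0 in AMI/S-endMSCs* against AMI/S-endMSCs. Over all probe sets the calls were 5.15%, 3.36% and 7.33%, so the counts of 0, 1 and 0 lay near this background. Without AMI/S-endMSCs replicate 3, the pig high in IL6, OSMR and JAK1, the first count was 3 (IL6ST, OSMR and JAK1, all lower). Calls were then more frequent over the whole array too, with 2518 of 27558 probe sets called, against 1420 with all pigs. The smallest adjusted p of any tested probe set was 0.769. None of the 8 probe sets separated any pair of groups without overlap, against 2.7%, 1.97% and 3.41% of all probe sets in the same order of comparisons, so this too lay near the background. The 95% interval of the difference stayed between -1 and 1 in 12 of the 24 tests, and the widest reached 1.43 in size. Of the 8 probe sets 5 had a negative difference in AMI/S-endMSCs against AMI/Placebo, with a median of -0.15. The comparisons with AMI/Placebo share their control pigs and are not independent.

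With the further ligands, receptor chains, kinases, STATs, inhibitors, adaptors and target genes, 87 genes of the pathway were listed beyond the members and 58 were measured. Of these, 0 rose and 1 fell in AMI/S-endMSCs against AMI/Placebo (1.72%, against 4.44% of all 10912 named genes), and the median difference was -0.09, against 0.01 over all genes. The gene that fell was MCL1, which the study also selected on these samples, so this call is not independent of that choice. In AMI/S-endMSCs* against AMI/Placebo 0 were called (3.23% of all genes), with a median of -0.05, against 0.01 over all genes. In AMI/S-endMSCs* against AMI/S-endMSCs 0 were called (7.29% of all genes), and both medians were -0.02.

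Inhibitors of the pathway were represented by 11 of 18 listed genes, including SOCS family members, the phosphatases PTPN1 and PTPRC and the receptor-cleaving proteases ADAM10 and ADAM17. None passed the test in any comparison. CISH, a SOCS family gene induced by STAT5 and singled out here after its values were seen, had the largest difference of this list. It read 2.42, 2.88, 2.34 and 2.92 in AMI/Placebo, 2.30, 2.31, 2.01 and 3.59 in AMI/S-endMSCs, and 3.73, 2.04, 4.81 and 3.64 in AMI/S-endMSCs*. In AMI/S-endMSCs* the pigs of replicates 1, 3 and 4 read above all others and replicate 2 among the lowest. The differences were 0.91 from AMI/Placebo (95% CI -0.13 to 1.95, limma unadjusted p = 0.0803) and 1.0 from AMI/S-endMSCs (95% CI -0.04 to 2.04, limma unadjusted p = 0.0574). Both turned on single pigs. Without replicate 2 of AMI/S-endMSCs* they were 1.42 and 1.51 (limma unadjusted p = 0.00325 and 0.0021), and without replicate 3 of that group 0.50 and 0.59 (limma unadjusted p = 0.289 and 0.215). The mean of the cardiomyocyte markers, each gene centred on its mean, was 1.86, -1.15, 1.76 and 1.08 in the AMI/S-endMSCs* pigs, so the same 3 pigs were high. With that mean as a covariate the CISH differences were 0.30 and 0.02 (limma unadjusted p = 0.414 and 0.962).

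Of the adaptors that lead from the receptors to ERK and PI3K, 6 of 12 were measured, and none passed the test in any comparison. Of 38 known STAT3 target genes 29 were measured. MCL1, which protects cells from apoptosis, fell in AMI/S-endMSCs against AMI/Placebo by 1.01 on the log2 scale (95% CI -1.77 to -0.24, limma unadjusted p = 0.0133, adjusted p = 0.857). Its values were 5.30, 5.46, 5.66 and 4.29 in AMI/Placebo, 3.20, 4.69, 4.63 and 4.17 in AMI/S-endMSCs, and 4.95, 4.87, 4.90 and 4.50 in AMI/S-endMSCs*. The placebo range reached down to 4.29 through replicate 4, which overlapped AMI/S-endMSCs. With the interquartile range of the array as a covariate the MCL1 difference was -0.62 (limma unadjusted p = 0.0459), and without replicate 1 of AMI/S-endMSCs it was -0.68 (limma unadjusted p = 0.0484). MCL1 was also selected on these samples by the study, so this call is not independent evidence of its direction. The remaining 28 targets did not pass in that comparison, and none passed in the other comparisons.

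Among the target genes with the quickest known response to STAT3, PIM1, a survival kinase, differed by 0.40, 0.05 and -0.35, MYC, a growth regulator, by 0.35, 0.01 and -0.34, and BCL3, a partner of NF-κB, by -0.16, -0.22 and -0.06, for AMI/S-endMSCs and AMI/S-endMSCs* against AMI/Placebo and AMI/S-endMSCs* against AMI/S-endMSCs. None of these passed the test. PIM1 read between 1.52 and 3.06, and its highest pigs were replicates 2 and 1 of AMI/S-endMSCs. MYC read between 3.20 and 4.49, and its 2 highest pigs, AMI/S-endMSCs replicate 3 and AMI/S-endMSCs* replicate 2, came from different groups. JUNB was not named by the table.

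From pig to pig the shared receptor chain, the brighter OSMR probe set and the kinases varied together. With 1 probe set per gene, that of the highest mean, 28 pairs of the 8 genes were tested over the 12 pigs, and 6 passed after Benjamini-Hochberg adjustment, all among IL6ST, OSMR, JAK1 and JAK2. The closest pair was OSMR and JAK1 (r = 0.85, rho = 0.83, permutation p = 0.00059, adjusted p = 0.00826). IL6ST and JAK1 followed (r = 0.78, rho = 0.78, permutation p = 0.00013, adjusted p = 0.00364), and the remaining 4 of these pairs had r from 0.70 to 0.80. Without the 2 pigs farthest from the median of the first gene, r was 0.78 for OSMR and JAK1 and 0.75 for IL6ST and JAK1, and between 0.50 and 0.85 for the other 4.

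Within groups, on deviations from the group means, OSMR and JAK1 had r = 0.84 (exact permutation p = 0.0023, adjusted p = 0.0299), IL6ST and JAK1 r = 0.73 (exact permutation p = 0.071, adjusted p = 0.248), and 7 of the 28 pairs passed. STAT3 by its brighter probe set joined them there, with OSMR (r = 0.70), JAK1 (r = 0.68) and JAK2 (r = 0.79, exact permutation p = 0.0077, adjusted p = 0.0361). LIF and IL6 passed with no other member, pooled or within groups, and LIF and STAT3 had r = 0.11 (rho = 0.10). For LIF and IL6R the correlation of 0.55 became 0.03 without the 2 farthest pigs.

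**Figure D3:**
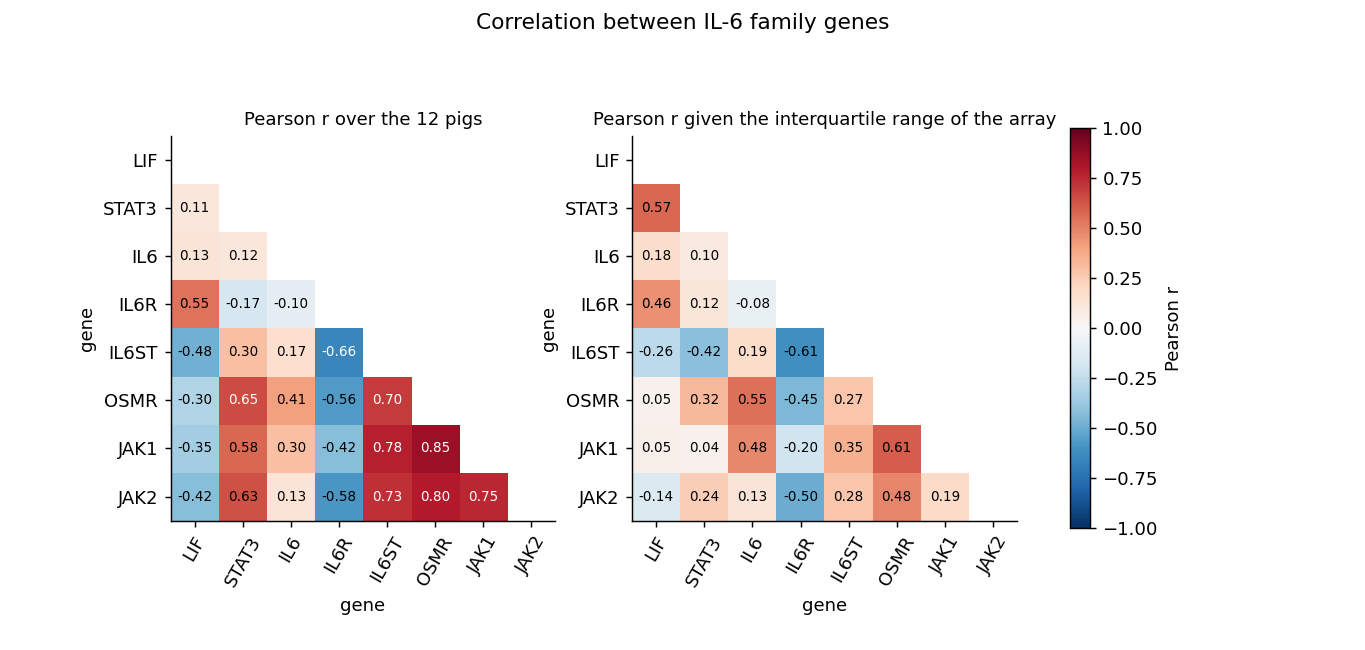
Pearson correlation over the 12 pigs between the IL-6 family genes (1 probe set per gene, both axes list the genes), as measured (left) and given the interquartile range of each array (right), with the colour and the printed number showing r. IL6ST, OSMR, JAK1 and JAK2 form a block of r from 0.70 to 0.85 on the left, and the same pairs range from 0.19 to 0.61 on the right.

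The contrast of the arrays moved with this block. Its probe sets were bright, with means over those of 97.1% (IL6ST), 94.9% (JAK1), 88.5% (JAK2) and 75.9% (OSMR) of all probe sets. How many other probe sets as bright follow the array width, or one another, as closely was not counted. Over the 12 pigs the interquartile range of the array, a measure added after seeing the data, correlated with JAK1 (r = 0.86, rho = 0.83, permutation p = 0.00059, adjusted p = 0.00708), JAK2 (r = 0.81, rho = 0.64, permutation p = 0.00225, adjusted p = 0.0135), IL6ST (r = 0.77, rho = 0.81, permutation p = 0.00056, adjusted p = 0.00708) and OSMR (r = 0.75, rho = 0.69, permutation p = 0.00504, adjusted p = 0.0242), adjusted over 24 relations. Within groups these were 0.83, 0.81, 0.73 and 0.73, and without the 2 pigs farthest from the median they were 0.77, 0.72, 0.65 and 0.62. For STAT3 r was 0.65 (rho = 0.56, permutation p = 0.019, adjusted p = 0.0759) and 0.78 within groups (exact permutation p = 0.0142, adjusted p = 0.0681), for LIF -0.43 and for IL6 0.07. The narrowest arrays were AMI/S-endMSCs replicate 1 (1.66), AMI/Placebo replicate 4 (1.80) and AMI/S-endMSCs* replicate 4 (1.81), and these pigs held 3 of the 4 lowest JAK2 values. Given the interquartile range, none of the 28 pairs passed, and none passed after quantile normalization, which makes all arrays equally wide.

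With the interquartile range in the fit, the differences of IL6ST, OSMR and JAK1 between AMI/S-endMSCs and AMI/Placebo lay closer to 0, and that of JAK2 changed sign at a like size. The difference of AMI/S-endMSCs from AMI/Placebo went from -0.61 to -0.22 for IL6ST, from -0.57 to -0.19 for the brighter OSMR probe set, from -0.38 to -0.08 for JAK1 and from -0.25 to 0.24 for JAK2. The JAK2 difference in AMI/S-endMSCs* against AMI/Placebo went from 0.18 to 0.28. For the brighter STAT3 probe set the difference of AMI/S-endMSCs from AMI/Placebo went from -0.11 to 0.22. The mean interquartile range was 2.23 ± 0.31 in AMI/Placebo, 1.97 ± 0.24 in AMI/S-endMSCs and 2.18 ± 0.29 in AMI/S-endMSCs* (SD, n = 4 each). For LIF in AMI/S-endMSCs* against AMI/S-endMSCs the difference was -0.70 in place of -0.83, and for the dimmer STAT3 probe set in AMI/S-endMSCs against AMI/Placebo -0.83 in place of -1.15. After quantile normalization these were -0.86 and -1.15, and IL6ST stood at -0.45.

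**Figure D4:**
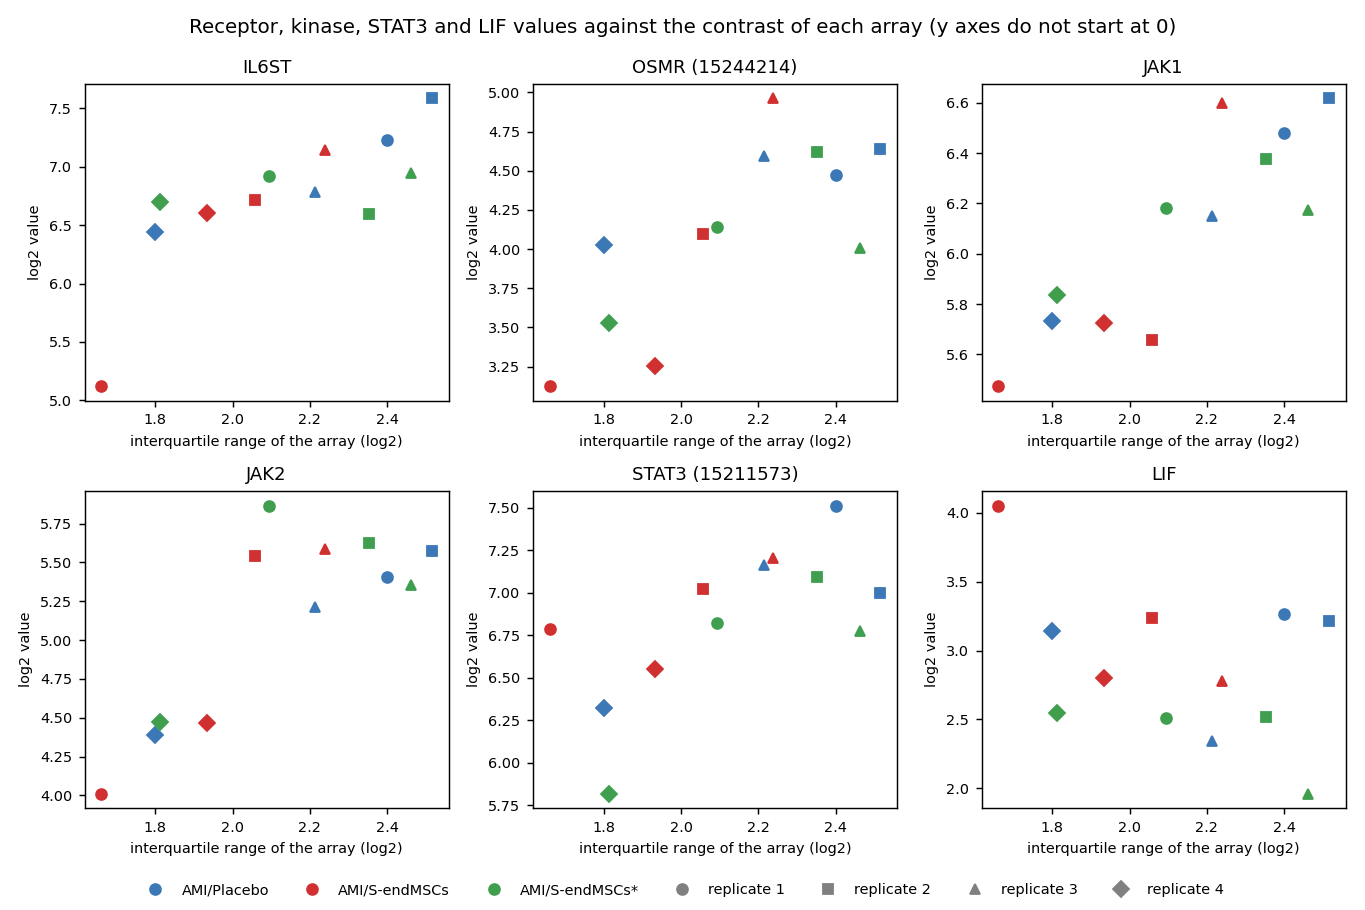
Log2 values of IL6ST, OSMR, JAK1, JAK2, STAT3 (brighter probe set) and LIF in each pig (y axes) against the interquartile range of its array (x axes, log2 units), coloured by group and shaped by replicate number. The kinases and receptor chains rise with the width of the array (r from 0.75 to 0.86), while for LIF, whose mean is near the median of all probe sets, r is -0.43.

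Markers of cell types were set beside the members. The mean of the 13 measured macrophage and monocyte markers, of 16 listed, was 0.33 ± 0.40 in AMI/Placebo, 0.05 ± 0.30 in AMI/S-endMSCs and -0.38 ± 0.53 in AMI/S-endMSCs* (SD, n = 4 each). Of these markers 0 rose and 4 fell in AMI/S-endMSCs* against AMI/Placebo, where 3.23% of all named genes were called. Markers of a list are read from the same pigs, so their counts are not independent findings. The means of 11 of the 13 markers were over the array-wide median. Over the 12 pigs this mean had r = 0.78 with the brighter STAT3 probe set (rho = 0.65, permutation p = 0.00217, adjusted p = 0.0135), and 0.67 without the 2 farthest pigs. Differences between groups enter these values, and STAT3 was chosen by the study on these arrays. Within groups r was 0.77, which did not pass after adjustment (exact permutation p = 0.0197, adjusted p = 0.0787). With LIF the macrophage mean had r = 0.40. The part of macrophage content in the STAT3 values was not tested.

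The mean of the cardiomyocyte markers was -0.14 ± 0.92 in AMI/Placebo, -0.75 ± 0.83 in AMI/S-endMSCs and 0.89 ± 1.40 in AMI/S-endMSCs* (SD, n = 4 each). Of the 15 markers 11 rose in AMI/S-endMSCs* against AMI/S-endMSCs, where 7.29% of all named genes were called. These 11 calls rest on the same pigs, and AMI/S-endMSCs* replicate 2 stood apart from its group at -1.15. With the cardiomyocyte marker mean as a covariate LIF was 0.74 lower in AMI/S-endMSCs* than in AMI/S-endMSCs, and the dimmer STAT3 probe set 1.16 lower in AMI/S-endMSCs than in AMI/Placebo. No member passed the adjusted test against the cardiomyocyte markers, with r from -0.47 for LIF to 0.42 for IL6ST. Neutrophil markers, 5 of 10 measured, had means of 0.26, 0.10 and -0.36 in AMI/Placebo, AMI/S-endMSCs and AMI/S-endMSCs*, with SDs of 0.52, 0.54 and 0.84.

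Fibroblast and scar matrix markers, 11 of 12 measured and all with means over the array-wide median, averaged 0.37 ± 0.56 in AMI/Placebo, -0.16 ± 0.67 in AMI/S-endMSCs and -0.21 ± 0.98 in AMI/S-endMSCs* (SD, n = 4 each). Of these 0 rose and 2 fell in AMI/S-endMSCs against AMI/Placebo, with a median difference of -0.52, where 4.44% of all named genes were called. In AMI/S-endMSCs* against AMI/Placebo 0 rose and 1 fell, where 3.23% of all named genes were called. The list includes THBS1, which the paper reports as lower after treatment on these same arrays, so these counts are not independent of that report. The mean of the fibroblast and scar matrix markers was lowest in AMI/S-endMSCs* replicate 4 (-1.59), AMI/S-endMSCs replicate 1 (-1.07) and AMI/Placebo replicate 4 (-0.44), the pigs with the narrowest arrays and with low JAK2 values. The part of fibroblast content in the values of the receptor chains and kinases was not tested. Of the endothelial markers 5 of 8 were measured and 1 fell in AMI/S-endMSCs against AMI/Placebo, where 4.44% of all named genes were called. Of the 12 T and NK cell markers, all measured, none passed the test in any comparison.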

How the data were processed

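RNA from infarcted tissue of 12 pigs was hybridised to Affymetrix porcine gene arrays, 1 array per pig. The deposited values are log2 expression per probe set, which the authors made from the scanned arrays by RMA in the R package oligo (version not given in the sources used here). The paper names background correction and normalization as its steps. As deposited, the arrays differed in width, with interquartile ranges from 1.66 to 2.52, and why they did was not tested. RMA tends to draw dim signals together, so differences of dim probe sets may be understated, which was not tested here. Nothing was rescaled here and no detection call was used.

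Probe sets were named through GEO's platform annotation. Of 27558, 11982 had 1 symbol, 373 had several and 15203 were not named. By Entrez ID 10922 matched RefSeq (Sscrofa11.1, used for names and gene order), and 0 symbols were updated.

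Groups came from the sample labels. Differences were fitted with limma 3.58.1 (R 4.3.3, lmFit and eBayes) on all 12 arrays with 1 mean per group, checked on simulated data, and called at an unadjusted p under 0.05, with Benjamini-Hochberg adjustment over all probe sets. A limma p-value sets a difference between groups against the spread of pigs within groups, adjusted by eBayes with the help of all probe sets. A permutation p-value refers to the correlation of values over these pigs. Correlations used Pearson's r and Spearman's rho over 12 pigs with 100000 permutations (scipy 1.17.1), and 13824 exact permutations within groups. In lists a gene is represented by its probe set of highest mean.

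The members and lists were chosen with earlier results of these data known. Named were every probe set of the members, list genes called in any comparison, a fixed set of ligands and targets, and the 5 genes most like LIF, IL6 and STAT3. As alternatives, arrays were centred on their medians, quantile-normalized or weighted, dim probe sets (mean under the median in all groups) were dropped, eBayes was given a trend, only 2 groups were fitted, the replicate number entered as a block, the cardiomyocyte marker mean entered as a covariate, probe sets of a gene were averaged, and each pig was left out. The interquartile range as a covariate was added after seeing the data. Between groups, a rise or fall is named only for called values, while higher and lower describe the values of these pigs, called or not. No sequence or coordinates are given, since the array's build was not named in the sources used here.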

Additional observations from a re-analysis of the deposited data

Results flagged for a closer look

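In 33 sets of 4 pigs (11 probe sets in 3 groups), 3 pigs stood apart from the other 3 of their group by Dixon's criterion, which chance meets in about 1 of 20 such sets. LIF read 2.34 in AMI/Placebo replicate 3, where the other 3 pigs lay between 3.14 and 3.26. LIF also read 1.96 in AMI/S-endMSCs* replicate 3, where the others lay between 2.51 and 2.55. The dimmer OSMR probe set (15242681) read 3.63 in AMI/Placebo replicate 4, where the others lay between 3.03 and 3.08. Without AMI/Placebo replicate 3 the difference of LIF between AMI/S-endMSCs* and AMI/Placebo was -0.82 in place of -0.61, and without AMI/S-endMSCs* replicate 3 it was -0.46.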

How the results depend on the processing

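Of the 33 comparisons of member probe sets 24 were tested and 1 was called, so most of the 723 alternative values could change side only by gaining a call, which 3 did. The call of IL6R probe set 15280475 in AMI/S-endMSCs* against AMI/Placebo was lost in 13 of its 21 alternatives. Among all 723 values 41 had the opposite sign to the value in the report, none of them for a called difference, and the differences concerned were at most 0.39 in size. In AMI/S-endMSCs against AMI/Placebo the count of called member probe sets was 0 to 3 with single pigs left out. Without AMI/S-endMSCs replicate 3 the limma fit called IL6ST (-0.86, unadjusted p = 0.0432), JAK1 (-0.63, limma unadjusted p = 0.0308) and the brighter OSMR probe set (-0.94, limma unadjusted p = 0.011), when 2518 probe sets were called in all. In AMI/S-endMSCs* against AMI/Placebo the count of 1 was 0 after quantile normalization, with the filter on dim probe sets, with only the 2 groups compared and with the mean over a gene's probe sets, and 0 to 1 with single pigs left out. The STAT3 difference in AMI/S-endMSCs against AMI/Placebo was -0.63 as a mean over its probe sets, which singly gave -0.11 and -1.15. Why the STAT3 probe sets differ was not tested.

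The pathway count of 1 in AMI/S-endMSCs against AMI/Placebo was 2 with median centring or the cardiomyocyte covariate, 3 with quantile normalization or array weights, 4 with the interquartile range covariate, and 1 to 3 with single pigs left out (3 without replicate 4 of either group). In AMI/S-endMSCs* against AMI/Placebo the count of 0 was 1 with median centring, quantile normalization, the trend, the cardiomyocyte or the interquartile range covariate, 6 with array weights and 0 to 5 with single pigs left out (5 without AMI/S-endMSCs* replicate 2). In AMI/S-endMSCs* against AMI/S-endMSCs the count of 0 was 1 with median centring or quantile normalization, 2 with array weights or the interquartile range covariate and 0 to 3 with single pigs left out (3 without AMI/S-endMSCs* replicate 2).

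Over all probe sets, the 1420 calls in AMI/S-endMSCs against AMI/Placebo were 815 with the filter, 2621 with array weights and 823 to 2904 with single pigs left out (without AMI/S-endMSCs replicate 1 and AMI/Placebo replicate 4). The 925 in AMI/S-endMSCs* against AMI/Placebo were 2251 with array weights, 616 with the cardiomyocyte covariate, 1420 with the interquartile range covariate and 657 to 1969 with single pigs left out (without AMI/Placebo replicate 3 and AMI/S-endMSCs* replicate 2). The 2020 in AMI/S-endMSCs* against AMI/S-endMSCs were 909 with the cardiomyocyte covariate and 1292 to 2769 with single pigs left out (without AMI/S-endMSCs* replicate 3 and AMI/S-endMSCs replicate 3). The 6 correlated member pairs were 0 after quantile normalization and 0 given the interquartile range. The main fit did not pair pigs by replicate number, and the labels do not say whether same-numbered pigs were handled together. Over 12 pairs of same-numbered pigs, deviations from the group means correlated at -0.18 to 0.40, and 4 pairs were over 0.1. The pairs of replicate 4 gave 0.15, 0.40 and 0.06. Its arrays had interquartile ranges of 1.80, 1.93 and 1.81 in AMI/Placebo, AMI/S-endMSCs and AMI/S-endMSCs*. Whether same-numbered pigs shared a block was not tested. With the replicate block the member counts were 0, 0 and 0 and the pathway counts 3, 1 and 1, in the order of comparisons above.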

Other observations

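The genes whose values followed LIF most closely over the 12 pigs, among 5827 named genes with a mean above the median, were ROGDI (r = 0.85), NPAS3 (0.84), MORC2 (0.84), XKR8 (0.83) and TMEM88 (0.79). For IL6 they were KIF11 (r = 0.87), KNSTRN (0.85), LOC100515945 (0.84), FBXO5 (0.80) and PCOLCE2 (0.79). KIF11, KNSTRN and FBXO5 are genes of cell division. For STAT3 by its brighter probe set they were PRRC2C (r = 0.96), YIPF3 (0.94), RAI14 (0.93), HTRA1 (0.93) and TBRG1 (0.92). Each list was picked as the top of 5827 correlations over 12 pigs, and the values are a description of these pigs.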
